A study of Rattus norvegicus with 9 samples.

Results

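The 36 genes described here were the members of glycolysis and of the hypoxia response, taken by symbol from the 18964 genes of the deposited table, and all 36 were found and passed the filter on low counts. They comprised 19 glycolytic enzymes, 4 genes of glucose entry and flux control, 4 genes for hypoxia-inducible factors and their prolyl hydroxylases, and 9 targets of those factors. Glycolysis splits glucose into pyruvate in the cytosol, and its first committed steps, hexokinase and phosphofructokinase, are controlled points at which cell types use different isoforms. The hypoxia-inducible factors HIF-1α and HIF-2α are made continuously and, when oxygen is plentiful, are hydroxylated on prolines by the EGLN enzymes and destroyed. When oxygen falls they persist, bind DNA as a pair with ARNT and raise transcription of most glycolytic enzymes, of PDK1, which holds pyruvate back from the mitochondria, and of genes for vessel growth and mitochondrial turnover. In collecting lymphatic vessels, rings of contracting muscle pump lymph and draw on both glycolysis and mitochondrial respiration for ATP.

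Poly(A) RNA came from gastric lymphatic vessels of wild-type male Sprague-Dawley rats weighing 180 to 220 g. All rats were fasted for 12 h. Controls were otherwise left alone and were given a gavage of water. Model rats were kept for 4 h in water 15 cm deep at 22 °C, which causes stress ulcers of the stomach, and were given a gavage without the drug 30 min later. BXD rats had the same stress and then Banxia Xiexin decoction, a Chinese herbal mixture, at 10 ml per kg. There were 3 libraries in each group out of 6 rats per group. The labels do not tie libraries to rats, so p-values measure the spread among these libraries. Vessels were not sorted into cell types, and in such bulk RNA fewer cells of a type and less RNA per cell cannot be told apart.

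Total estimated counts lay between 12313823 and 13455701 per library, and 14643 genes were tested. Levels are given as CPM, counts scaled to the size and, by trimmed means, the composition of the library, and are compared between genes only as FPKM, which divides by gene length. All 8 markers of lymphatic endothelium, Prox1, Lyve1 and Flt4 among them, were detected in all 9 libraries, and summed to 855 to 993 CPM in control, 818 to 1478 in model and 1236 to 1795 in BXD, where 1 rose and 2 fell in model against control. The 10 smooth muscle markers summed to 4890 to 7323 CPM in control, 2404 to 4144 in model and 6809 to 10402 in BXD, and 7 of them fell in model against control. The 7 gastric mucosa markers in the table summed to at most 2.203 CPM in any library. The 10 fat cell markers summed to 4768 to 5265 CPM in control, 12651 to 21527 in model and 8821 to 12843 in BXD, and 9 of the 10 rose in model against control. The 15 striated muscle markers summed to between 25.2 and 79.6 CPM in 6 libraries, 532 CPM in model replicate 2, 8724 CPM in BXD replicate 1 and 4879 CPM in BXD replicate 3.

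RefSeq (GRCr8) gave sequence upstream of 33 of the 36 genes, in 38 windows of 250 bases that end at an annotated start. The unmatched genes are Slc2a4, Pgk1 and Ndrg1. The core of the hypoxia response element, the motif of the hypoxia-inducible factors, was searched as ACGTG or GCGTG on both strands, so that CACGT and CACGC also counted, and CACGTG was read on both strands. It was present in 24 of the 38 windows (63.2%), and in 12284 of all 33469 windows of that length in the RefSeq table (36.7%). The latter were not matched to the members in base composition or expression, so the shares are only set side by side. Of the windows of genes called higher in model against control, 14 of 20 held the core, of those called lower 4 of 5, and of those not called 6 of 13. The windows shown belong to genes that rose most (Pfkfb3 and Bnip3), to Ldha, a classical target of the factors, and to the targets P4ha1 and P4ha2, which fell. Each reads 5′ to 3′ toward the start on its right, with the core in capitals.

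Pfkfb3, chr17:71944683-71944932, strand +: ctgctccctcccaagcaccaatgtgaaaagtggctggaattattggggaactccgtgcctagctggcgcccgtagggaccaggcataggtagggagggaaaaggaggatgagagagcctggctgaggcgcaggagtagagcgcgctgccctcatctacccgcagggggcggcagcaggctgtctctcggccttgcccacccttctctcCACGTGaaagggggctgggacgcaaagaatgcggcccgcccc

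Bnip3, chr1:203154963-203155212, strand -: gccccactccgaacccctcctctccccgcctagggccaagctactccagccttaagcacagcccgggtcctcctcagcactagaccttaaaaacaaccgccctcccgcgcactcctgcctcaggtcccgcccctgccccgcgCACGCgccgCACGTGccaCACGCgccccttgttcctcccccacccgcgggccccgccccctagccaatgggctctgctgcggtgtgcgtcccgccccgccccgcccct

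Ldha, chr1:106507842-106508091, strand +: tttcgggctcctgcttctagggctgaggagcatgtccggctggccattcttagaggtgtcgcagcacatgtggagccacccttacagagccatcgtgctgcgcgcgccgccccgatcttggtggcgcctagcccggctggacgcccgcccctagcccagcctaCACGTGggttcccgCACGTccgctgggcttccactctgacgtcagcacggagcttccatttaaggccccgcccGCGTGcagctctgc

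P4ha1, chr20:27844796-27845045, strand +: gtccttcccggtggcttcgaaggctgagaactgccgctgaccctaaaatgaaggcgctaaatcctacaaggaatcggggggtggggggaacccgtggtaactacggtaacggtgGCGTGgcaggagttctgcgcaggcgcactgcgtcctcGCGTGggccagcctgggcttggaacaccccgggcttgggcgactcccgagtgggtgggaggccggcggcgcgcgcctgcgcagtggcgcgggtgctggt

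P4ha2, chr10:38743644-38743893, strand +: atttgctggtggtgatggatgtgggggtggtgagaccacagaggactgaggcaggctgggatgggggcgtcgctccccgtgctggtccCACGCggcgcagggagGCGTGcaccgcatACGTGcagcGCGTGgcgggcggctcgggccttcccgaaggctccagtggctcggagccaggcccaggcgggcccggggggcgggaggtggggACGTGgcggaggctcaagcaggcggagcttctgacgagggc

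The core nearest the start lay 36 bases from it in Pfkfb3, 85 in Bnip3, 9 in Ldha, 94 in P4ha1 and 36 in P4ha2. The genes that fell thus carried the letters as did the genes that rose, and P4ha2 held 5 copies against 4 counted in Bnip3. The windows of Hk2, which rose, and of Egln3, which fell, held none. These are matches of letters in 1 window per start, and binding was not measured.

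In the vessels of stressed rats, most glycolytic enzymes stood higher than in control vessels, while the hypoxia targets were divided. Of the 36 genes, 20 were called higher and 5 lower at an adjusted p under 0.05 in edgeR's quasi-likelihood test, where 21.6% of all genes tested were called higher and 20.6% lower, 42.2% in all. These are 55.6% and 13.9% of the members. The members were chosen with earlier results of these data known, so the shares are only set beside those of all genes. All 3 model libraries lay above all 3 control libraries for 20 of the 36 members and below them for 4, against 28.9% and 29.4% of all genes. The median log2 fold change was 0.61 over the members and -0.01 over all genes. Of the 19 enzymes, 12 rose and 2 fell, with a median of 0.69, and of the 4 genes of glucose entry and flux control 3 rose. Of the 9 hypoxia targets 3 rose, 2 fell and 4 were not called, with a median of 0.01. These are 33.3% and 22.2% of so few genes, not far from the shares of all genes. The call depended in part on the scaling: with upper quartile scaling, which moved the median of all genes to -0.14, 16 members were called higher and 5 lower. With library size alone, which moved that median to -0.28, the numbers were 14 and 6. No share of all genes called under these scalings is given here.

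**Figure D1:**
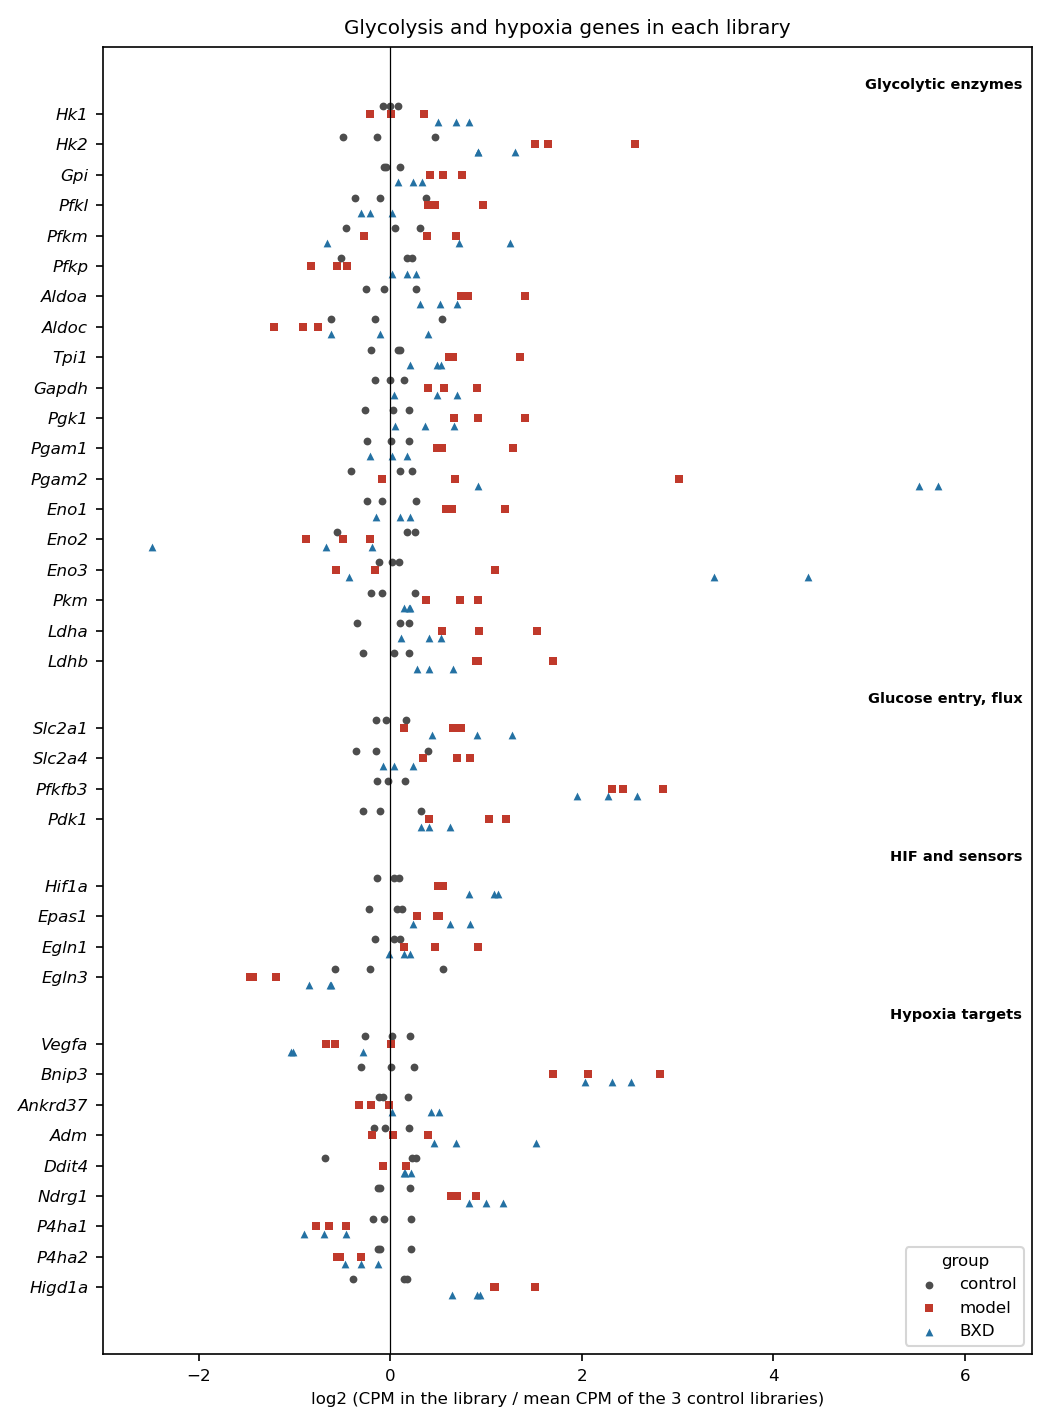
Each point is 1 of 9 libraries: the x axis is log2 of its CPM over the mean CPM of the 3 control libraries, and each line of the y axis is a gene. The model libraries (squares) lie right of all control libraries (circles) for most enzymes, for Pfkfb3 and for Bnip3, and left of them for Aldoc, Egln3, P4ha1 and P4ha2, while Pgam2 and Eno3 are spread widest in BXD (triangles).

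Hexokinase traps glucose in the cell as glucose 6-phosphate, and Hk2 rose while Hk1 was not called. Hk2 (gene 25059, chromosome 4, 113559391 to 113609897 in Rnor_6.0), the insulin-responsive form of muscle and fat, stood at 98.3, 50.7 and 64.8 CPM in the 3 control libraries and 223, 418 and 203 CPM in the 3 model libraries. Every model library was above every control library, with model replicate 2 the highest. The rise was 3.95-fold, with a log2 change of 1.98 (SE 0.32, adjusted p = 0.00204). Hk1, the housekeeping form, stood at 100.03, 112 and 105 CPM in control and 136, 91.4 and 106 CPM in model, overlapping groups, with a log2 change of 0.069 (SE 0.15, adjusted p = 0.732). Gpi, which turns glucose 6-phosphate into fructose 6-phosphate, rose from 347, 308 and 313 CPM to 474, 541 and 429.5 CPM, without overlap, by 0.58 on the log2 scale, with an SE of 0.12 and an adjusted p of 0.00559. Phosphofructokinase then makes the commitment to glycolysis, and its isoforms also went different ways. Pfkl, the liver form, stood at 168, 119.8 and 99.7 CPM in control and 169.6, 253 and 179 CPM in model. The lowest model value was just above the highest control value, and the log2 fold change was 0.63 (SE 0.21, adjusted p = 0.0395). That call was lost without control replicate 2 (adjusted p = 0.123), control replicate 3 (0.139), model replicate 2 (0.136), model replicate 3 (0.0513) or BXD replicate 2 (0.0619), and with upper quartile scaling (0.0803), and held in 8 of 20 alternatives. Pfkp, the platelet form, went the other way, from 59.1, 98.1 and 95.1 CPM to 57.0, 47.5 and 61.7 CPM, where control replicate 1 lay inside the model range. Its fitted log2 change was -0.60 (SE 0.19, adjusted p = 0.0321), a call lost without control replicate 2 (0.105), control replicate 3 (0.0975), model replicate 1 (0.0631) or model replicate 2 (0.101). Pfkm, the muscle form, stood at 76.5, 63.8 and 44.9 CPM in control and 80.5, 99.0 and 51.0 CPM in model and was not called, at a log2 change of 0.31 (SE 0.43, adjusted p = 0.579).

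The steps from aldolase to lactate dehydrogenase were led by the abundant, widely expressed isoforms, and all of these rose in model. Aldoa, which cleaves fructose 1,6-bisphosphate, stood at 1250.2, 996 and 875 CPM in control and 1827, 2763 and 1740.0 CPM in model, with a log2 change of 1.02 (SE 0.21, adjusted p = 0.00564). Tpi1, the triose phosphate isomerase, stood at 274, 278 and 226 CPM in control and 407, 662 and 396 CPM in model, a log2 change of 0.91 (SE 0.20, adjusted p = 0.00784). In both, as in the next 7 enzymes, every model library was above every control library. Gapdh, the dehydrogenase that makes NADH, stood at 993, 903 and 809 CPM in control and 1332, 1687 and 1187 CPM in model, with a log2 change of 0.64 (SE 0.19, adjusted p = 0.026). Pgk1, which yields the first ATP, stood at 256, 227 and 185 CPM in control and 419, 591 and 353 CPM in model, with a log2 change of 1.03 (SE 0.22, adjusted p = 0.00688). Pgam1, the common phosphoglycerate mutase, stood at 438, 386 and 323 CPM in control and 555, 926 and 534 CPM in model, with a log2 change of 0.81 (SE 0.22, adjusted p = 0.0177). Model replicate 2 was the highest library for each of these. Eno1, the ubiquitous enolase, stood at 737, 576 and 516 CPM in control and 915, 1398 and 956 CPM in model, with a log2 change of 0.84 (SE 0.20, adjusted p = 0.0101). Pkm, pyruvate kinase of muscle and most other tissues, stood at 715, 564 and 519.9 CPM in control and 991, 1130.0 and 776 CPM in model, with a log2 change of 0.69 (SE 0.16, adjusted p = 0.0101). Both lactate dehydrogenase subunits, which interconvert pyruvate and lactate, rose together. Ldha stood at 655, 613 and 450.4 CPM in control and 835, 1655 and 1088 CPM in model, and Ldhb at 301, 270.4 and 216 CPM in control and 496, 854 and 489 CPM in model.

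The log2 fold change was 1.06 (SE 0.25, adjusted p = 0.01) for Ldha and 1.22 (SE 0.23, adjusted p = 0.00391) for Ldhb in edgeR's test. The Gapdh call was lost without control replicate 2 (adjusted p = 0.0746), control replicate 3 (0.0949) or model replicate 2 (0.0841), and the Pgam1 call without control replicate 2 (0.0539) or 3 (0.0695). Scaling ended both calls too: with library size alone the adjusted p was 0.112 for Gapdh and 0.06 for Pgam1, upper quartile scaling gave 0.0507 for Gapdh, and Gapdh was called in 13 and Pgam1 in 15 of 20 alternatives. Gapdh and several of its neighbours in the pathway have processed pseudogenes, among which the counting could divide reads, so their levels are uncertain to that extent. In these later steps, none of the minor isoforms Aldoc, Pgam2, Eno2 and Eno3 was called higher. Aldoc, the brain aldolase, stood at 12.8, 20.8 and 9.32 CPM in control and 8.50, 7.62 and 6.15 CPM in model, and fell by the test, at a log2 change of -0.95 (SE 0.34, adjusted p = 0.0464). It lost the call without control replicate 1 (0.0699), control replicate 2 (0.174), model replicate 1 (0.068), model replicate 2 (0.0998), model replicate 3 (0.128) or BXD replicate 2 (0.0611), and kept it in 11 of 20 alternatives. Eno2, the neuronal enolase, stood at 18.95, 17.9 and 10.8 CPM in control and 13.7, 8.60 and 11.2 CPM in model and was not called, at a log2 change of -0.51 (SE 0.46, adjusted p = 0.403). Of 11 markers of nerve and glia 10 were tested, and 5 fell and 1 rose. The fitted change was negative for 9 of the 10, with a median log2 change of -2.21. Summed over the 11, they stood at 426 to 745 CPM in control, 402 to 663 in model and 430 to 747 in BXD. These sums overlapped although most of the markers were lower in model. The part of these markers in the Aldoc and Eno2 values was not tested. The muscle forms Pgam2 and Eno3 were not called, at a log2 change of 1.80 (SE 1.22, adjusted p = 0.262) and 0.30 (SE 0.93, adjusted p = 0.813), and are described with the BXD libraries, where they were highest.

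The largest rise of the 36 genes was in a regulator rather than in an enzyme of the pathway. Pfkfb3 (gene 117276, chromosome 17, 70632778 to 70713736) makes fructose 2,6-bisphosphate, the strongest activator of phosphofructokinase. It stood at 308, 283 and 347 CPM in control and 1680.0, 2259 and 1562 CPM in model, with no library near the other group. The rise was 5.86-fold, with a log2 change of 2.55 (SE 0.20, adjusted p = 0.000214). Pdk1, the kinase that switches off pyruvate dehydrogenase, stood at 141, 92.2 and 104 CPM in control and 229, 260.0 and 149 CPM in model, a rise of 0.92 on the log2 scale, with an SE of 0.22 and an adjusted p of 0.0105, with model replicate 3 only slightly above control replicate 1. Its call was lost when model replicate 2 and BXD replicates 1 and 3, the libraries with striated muscle transcripts, were left out together (adjusted p = 0.059), as was that of Pkm (0.0562). Of the glucose transporters, Slc2a4 was called and Slc2a1 was not, both near the threshold. Slc2a4, the insulin-responsive GLUT4 of fat and muscle, stood at 178, 122 and 105 CPM in control and 219, 239.6 and 171 CPM in model, with control replicate 1 above model replicate 3, and was called at a log2 change of 0.64 (SE 0.20, adjusted p = 0.033). The call was lost without control replicate 2 (0.112), control replicate 3 (0.116), model replicate 1 (0.0763) or model replicate 2 (0.101). Upper quartile scaling (0.0661) and library size alone (0.137) also ended it, and it held in 10 of 20 alternatives. Slc2a1, the widely expressed GLUT1 and a hypoxia target, stood at 18.6, 15.0 and 16.1 CPM in control and 27.6, 18.4 and 26.1 CPM in model and was not called, at a log2 change of 0.54 (SE 0.23, adjusted p = 0.0856). Slc2a1 was called higher in 5 of 20 alternatives, among them without model replicate 2 (0.0469), BXD replicate 1 (0.0491) or BXD replicate 3 (0.048). Slc2a1 made up 9.22, 10.7 and 12.9% of the summed FPKM of both transporters in control and 10.9, 6.95 and 13.0% in model, overlapping groups (exact two-sided permutation p = 0.9).

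Of the oxygen-sensing genes, Hif1a and Egln1 rose, Egln3 fell and Epas1 was not called. Hif1a (gene 29560, chromosome 6, 96810868 to 96858750), which encodes HIF-1α, stood at 136, 115 and 131 CPM in control and 181, 181 and 187 CPM in model, closely grouped and without overlap. The log2 fold change was 0.52 (SE 0.11, adjusted p = 0.00597), and with library size as the only scaling, as on both FPKM fits, the call was lost (adjusted p = 0.0858 for the former). Epas1, which encodes HIF-2α, stood at 248, 203 and 258 CPM in control and 337, 332 and 286 CPM in model, also without overlap. It was not called, at a log2 change of 0.43 (SE 0.16, adjusted p = 0.0597). DESeq2, the compared groups alone and the fits without BXD replicate 1 or 3 called Epas1 higher, 4 of 20 alternatives. HIF proteins are controlled mainly by their destruction, which these libraries do not measure. Egln1, the main hydroxylase PHD2, stood at 85.3, 81.4 and 71.1 CPM in control and 87.7, 149 and 109.7 CPM in model, a log2 change of 0.54 (SE 0.18, adjusted p = 0.0361), with model replicate 1 just above control replicate 1. Its call was lost without any single control library (adjusted p = 0.0642, 0.0871 and 0.13 without replicates 1 to 3), without model replicate 2 (0.102) or 3 (0.0595), and without BXD replicate 2 (0.0526). It was also lost with upper quartile scaling (0.0832), library size alone (0.208), both FPKM fits, the compared groups alone and the replicate number as a term, and held in 7 of 20 alternatives. Egln3 (gene 54702, chromosome 6, 75050329 to 75075795), the hydroxylase PHD3 and itself a target of the factors, fell. It stood at 31.8, 69.4 and 40.8 CPM in control and 20.8, 17.1 and 17.5 CPM in model, every model library below every control library. It was 2.56-fold lower, with a log2 change of -1.36 (SE 0.26, adjusted p = 0.00388).

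The hypoxia targets moved in both directions, in shares not far from those of all genes. Bnip3 (gene 84480, chromosome 1, 211248098 to 211265282), a mitochondrial protein that marks mitochondria for removal, stood at 128, 188 and 159.8 CPM in control and 514, 1121 and 664 CPM in model. All 3 model libraries were far above control, and the rise was 4.83-fold, with a log2 change of 2.27 (SE 0.29, adjusted p = 0.000769). Higd1a, a small protein of the mitochondrial inner membrane, rose from 47.4, 46.3 and 32.1 CPM to 89.7, 119 and 89.0 CPM, by 1.24 on the log2 scale, with an SE of 0.18 and an adjusted p of 0.0013. Ndrg1, a stress and differentiation gene, rose from 181, 179 and 226 CPM to 365, 304 and 317 CPM, by 0.75 on the log2 scale, with an SE of 0.14 and an adjusted p of 0.00349. For all 3 the groups did not overlap. The subunits of the enzyme that hydroxylates collagen prolines fell. P4ha1 (gene 64475, chromosome 20, 28920616 to 28972576) stood at 149, 113 and 123 CPM in control and 93.1, 82.4 and 74.7 CPM in model, with a log2 change of -0.62 (SE 0.15, adjusted p = 0.0111). P4ha2 stood at 89.2, 71.4 and 70.5 CPM in control and 62.5, 52.5 and 53.7 CPM in model, a log2 change of -0.45 (SE 0.14, adjusted p = 0.0254), and lost the call without control replicate 1 (0.0813), model replicate 2 (0.0749) or model replicate 3 (0.0712). The remaining 4 targets were not called. Vegfa, the main vessel growth factor, stood at 341, 299.6 and 246 CPM in control and 198, 296 and 186 CPM in model. Its log2 change was -0.38 (SE 0.25, adjusted p = 0.241). Vegfa was called lower in 4 of 20 alternatives, among them library size alone (0.0344) and both FPKM fits. Adm, adrenomedullin, a dilator peptide that lymphatic endothelium needs, stood at 23.4, 27.9 and 21.7 CPM in control and 31.9, 24.8 and 21.3 CPM in model, with a log2 change of 0.10 (SE 0.27, adjusted p = 0.793).

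Ddit4, an inhibitor of mTORC1, stood at 189, 98.2 and 185 CPM in control and 149, 176 and 149 CPM in model, with a log2 change of 0.0077 (SE 0.22, adjusted p = 0.979), and control replicate 2 was the lowest of all libraries. Ankrd37, an ankyrin-repeat gene used as a hypoxia marker, was near 1 CPM throughout, at 1.14, 1.17 and 1.40 CPM in control and 1.23, 1.08 and 0.987 CPM in model, with a log2 change of -0.17 (SE 0.30, adjusted p = 0.66). The 5 members called lower became 2 (Egln3 and P4ha1) without model replicate 2, and 3 without control replicate 1, control replicate 2, model replicate 1 or model replicate 3. The small values of Hk1, Eno3, Adm and Ddit4 had the opposite sign under some scalings or without some libraries. The members called higher became 15 without control replicate 2 and 15 without control replicate 3. How far the calls over all genes changed in those fits is not given here. Of the 25 called members, 14 were called under each of the 20 alternatives run, and these were Hk2, Gpi, Aldoa, Tpi1, Pgk1, Eno1, Ldha, Ldhb, Pfkfb3, Egln3, Bnip3, Ndrg1, P4ha1 and Higd1a.

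Between BXD and model, edgeR called 0 of the 36 genes, where 0.0546% of all genes tested were called higher and 0.00683% lower, 0.0615% in all. The smallest adjusted p was 0.0959. At an unadjusted p under 0.05, 8 of the 36 members were higher in BXD and 14 lower, against 11% and 9.85% of all genes tested. Limma-voom also called 0 members. Another tool differed: DESeq2 called 9 members, Adm, Hif1a, Hk1, Pfkp and Eno3 higher and Pgam1, Eno1, Ldhb and Pfkl lower. The authors' deposited table, made with DESeq2 per its headers, listed Pfkp, Hif1a and Egln3 higher and Pfkl, Pgam1 and Eno1 lower at a q under 0.05. The share of all genes called is not given here for either source. These counts therefore do not show whether the members differ from other genes. Among the 19 enzymes 10 had all BXD libraries below all model libraries and 3 had them above, where 11.8% and 10.5% of all genes did. The median log2 difference was -0.50 over the enzymes and -0.01 over all genes, and none of these differences passed edgeR's test. This comparison and that of model with control share the model libraries, so their values are set side by side and not taken as separate evidence.

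The 6 genes with the smallest p came from both sides. Hif1a stood at 181, 181 and 187 CPM in model and 270.3, 277 and 226 CPM in BXD, every BXD library above every model library, with a log2 difference of 0.49 (SE 0.11, adjusted p = 0.0959). Hk1 stood at 136, 91.4 and 106 CPM in model and 169.9, 187 and 149.7 CPM in BXD, with a log2 change of 0.61 (SE 0.15, adjusted p = 0.11), and Pfkp at 57.0, 47.5 and 61.7 CPM in model and 102, 95.1 and 85.1 CPM in BXD, with a log2 change of 0.76 (SE 0.19, adjusted p = 0.11). Both were higher in each BXD library than in any model library. Eno1 stood at 915, 1398 and 956 CPM in model and 549.6, 653 and 705 CPM in BXD, with a log2 change of -0.78 (SE 0.20, adjusted p = 0.111). Pfkl stood at 169.6, 253 and 179 CPM in model and 105, 111 and 131 CPM in BXD, with a log2 change of -0.79 (SE 0.21, adjusted p = 0.121). Pgam1 stood at 555, 926 and 534 CPM in model and 329, 388 and 431 CPM in BXD, with a log2 change of -0.81 (SE 0.22, adjusted p = 0.124). These 3 were lower in each BXD library than in any model library, and their BXD values lay within the control range of 516 to 737 CPM for Eno1, 99.7 to 168 CPM for Pfkl and 323 to 438 CPM for Pgam1. Hk2 stood at 176, 135 and 134 CPM in BXD, between the control and model libraries without overlapping either. Gpi, Aldoa, Tpi1, Pkm, Ldha and Ldhb also had all BXD libraries below all model libraries, at log2 differences from -0.36 for Gpi to -0.77 for Ldhb. Bnip3, at 650.1, 792 and 908 CPM, and Pfkfb3, at 1862, 1206 and 1513 CPM, overlapped model. Without BXD replicate 2 edgeR called 1 member, Eno3, at a log2 difference of 3.66 (adjusted p = 0.0253).

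**Figure D2:**
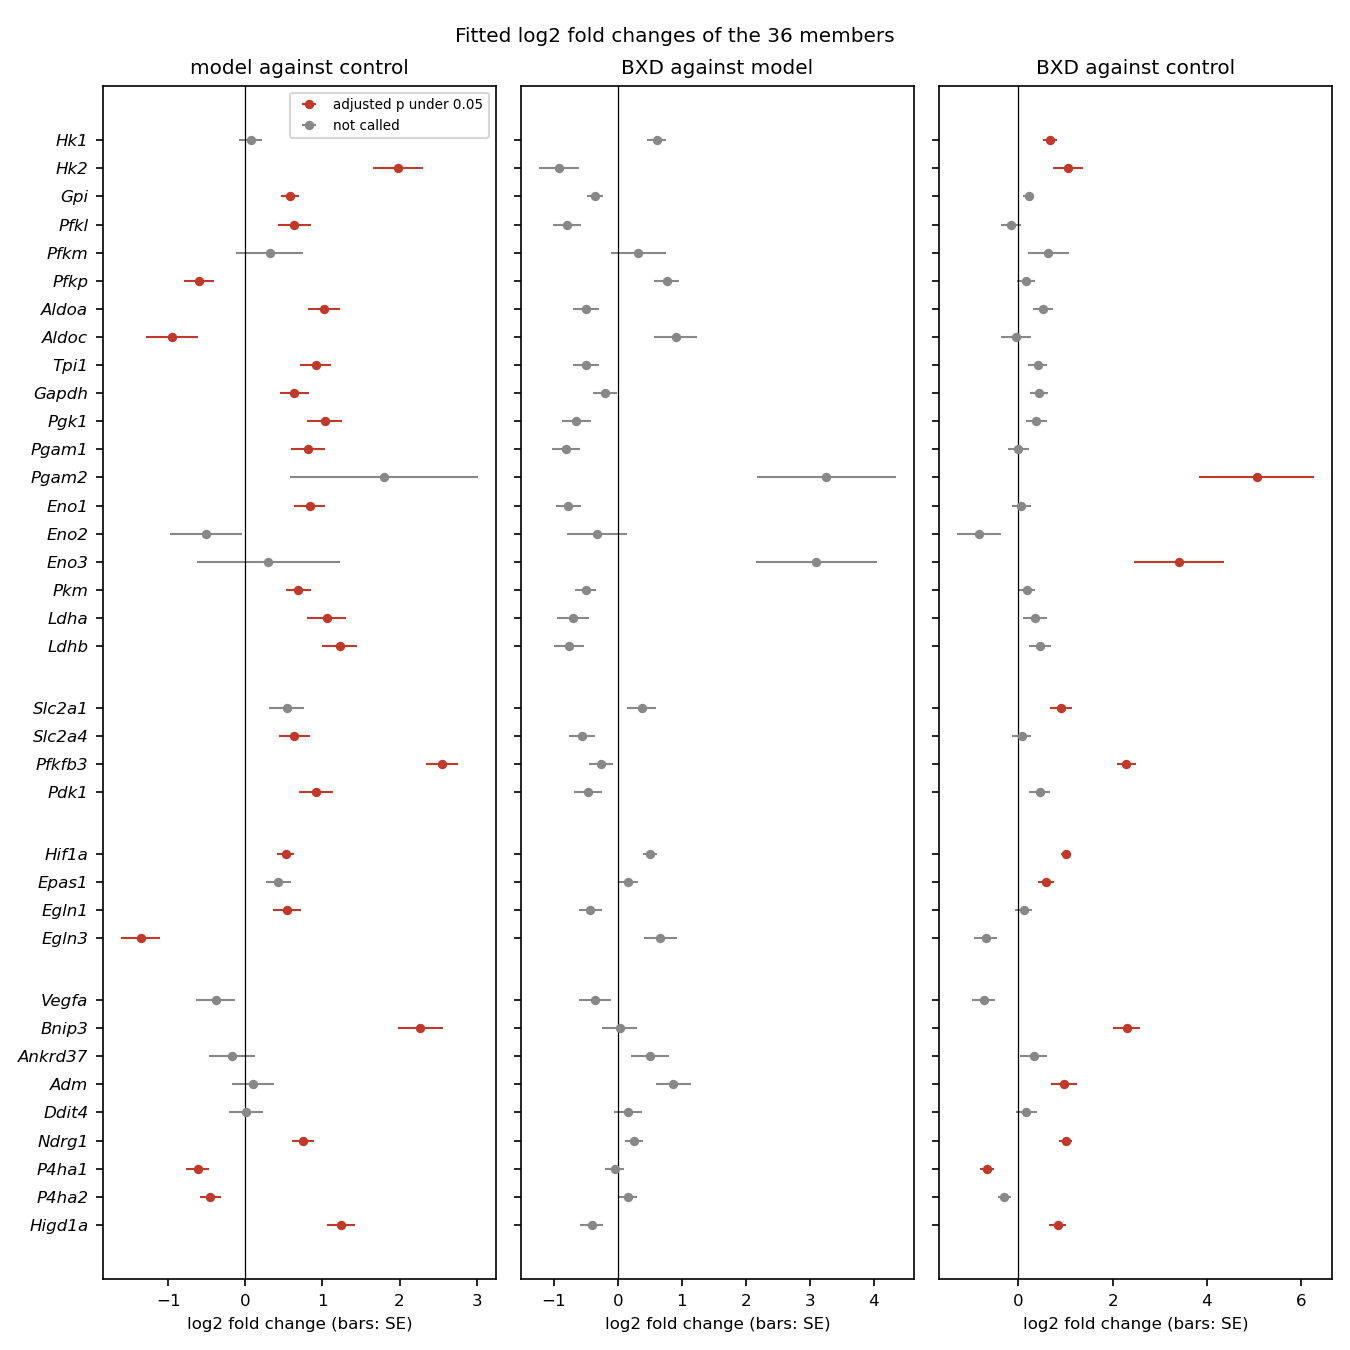
Fitted log2 fold changes of the 36 genes in 3 panels, 1 per comparison, with bars of 1 SE to each side and genes called at an adjusted p under 0.05 in red. The left panel shows 25 called genes, the middle panel 0 and the right panel 13, and the x axes differ in range.

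Between BXD and control, 12 members were called higher and 1 lower, where 16.1% of all genes tested were called higher and 14.3% lower, 30.3% in all. These are 33.3% and 2.78% of the members, 36.1% in all, so the total lay near that of all genes. All 3 BXD libraries lay above all 3 control libraries for 14 of the 36 members and below them for 3, against 23.8% and 24.8% of all genes. The median log2 fold change was 0.40 over the members and -0.02 over all genes. The called genes were 4 of the 19 enzymes, 2 of the 4 genes of glucose entry and flux control, 2 of the 4 oxygen-sensing genes and 5 of the 9 targets. Of the enzymes 21.1% were called higher and 0% lower, and of the targets 44.4% and 11.1%, beside 16.1% and 14.3% of all genes. Pfkfb3 had the smallest p, with BXD libraries at 1862, 1206 and 1513 CPM and a log2 change of 2.29 (SE 0.20, adjusted p = 0.000515). Bnip3 was higher by 2.30 on the log2 scale (SE 0.29, adjusted p = 0.00115) and Ndrg1, at 441, 345 and 389.7 CPM, by 1.00 on the log2 scale (SE 0.14, adjusted p = 0.00154). Hif1a was higher by 1.02 on the log2 scale (SE 0.11, adjusted p = 0.000761), and its 9 libraries fell into 3 groups without overlap, control lowest and BXD highest. Higd1a, at 65.5, 80.1 and 78.8 CPM, was higher by 0.84 on the log2 scale (SE 0.18, adjusted p = 0.00899) and Hk1 by 0.68 on the log2 scale (SE 0.15, adjusted p = 0.0105). The Hk1 call was lost with library size alone (adjusted p = 0.0562) and on both FPKM fits. P4ha1, at 79.6, 93.3 and 68.5 CPM, was the member called lower, at a log2 change of -0.67 (SE 0.15, adjusted p = 0.011). Pgam2, the muscle phosphoglycerate mutase, was the eighth by p, at a log2 change of 5.05 (SE 1.22, adjusted p = 0.0153), and lost the call without control replicate 1 (0.0584), control replicate 2 (0.0608) or control replicate 3 (0.0628). The other genes called higher were Hk2, at a log2 fold change of 1.06, Eno3 at 3.40, Slc2a1 at 0.91, Epas1 at 0.59 and Adm at 0.96. Adm stood at 69.9, 39.1 and 33.4 CPM in BXD, each above all control and model libraries, and Slc2a1 at 39.9, 31.0 and 22.4 CPM, each above all control libraries. Each of these 5 calls was lost without some single libraries. Hk2 lost its call without BXD replicate 1 (adjusted p = 0.0804), BXD replicate 2 (0.0612), BXD replicate 3 (0.0539), control replicate 2 (0.104) or control replicate 3 (0.096). Epas1 lost it without BXD replicate 1 (0.0647), BXD replicate 2 (0.0684), control replicate 1 (0.0529) or control replicate 2 (0.0877), Adm without control replicate 1 (0.0761) or 3 (0.0853), and Slc2a1 without control replicate 2 (0.0633) or 3 (0.0567). Eno3 lost it without BXD replicate 1 (0.0621) or 3 (0.0594) or any of control replicates 1 to 3 (0.0886, 0.0932 and 0.0885). Vegfa stood at 243, 144 and 147 CPM in BXD, each below all control libraries, and was not called, at an adjusted p of 0.0527. With upper quartile scaling 12 members were called higher and 4 lower, and with library size alone 9 and 4. Without control replicate 2 or without control replicate 3 the called members numbered 8 in place of 13. Shares of all genes under these alternatives are not given here. At a q under 0.05, the authors' deposited table had, of the members, 15 higher and 2 lower in BXD against control, and 22 higher and 5 lower in model against control. No share of all genes is given beside these counts.

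Pgam2, Eno3 and Pfkm, the muscle isoforms of their steps, were high in the libraries that held striated muscle transcripts. Pgam2 stood at 1.42, 1.30 and 0.911 CPM in control, 1.93, 9.77 and 1.14 CPM in model and 63.7, 2.28 and 55.6 CPM in BXD, high in BXD replicates 1 and 3 and, to a lesser degree, in model replicate 2. Eno3 followed the same libraries, at 11.2, 9.74 and 10.7 CPM, 9.46, 22.5 and 7.14 CPM in model and 217, 7.85 and 109.7 CPM in BXD, and Pfkm stood at 146, 39.0 and 102 CPM in BXD. The 15 striated muscle markers, myosins, troponins and skeletal actin among them, summed to 8724, 79.6 and 4879 CPM in BXD replicates 1, 2 and 3, and 15 of the 15 were called higher in BXD against control and 0 in BXD against model. In BXD replicate 2, which had few of these transcripts, Pgam2 was at 2.28 CPM and Eno3 at 7.85 CPM, beside control ranges of 0.911 to 1.42 and 9.74 to 11.2 CPM. Without model replicate 2 and BXD replicates 1 and 3 together, which leaves a single BXD library, Pgam2 was not called in BXD against control (adjusted p = 0.22), nor were Eno3 (log2 change -0.42, adjusted p = 0.223) and P4ha1 (0.145), and 8 members were called higher and 1 lower. The lone library is assumed there to vary like those of the other groups.

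Fat cell markers moved with the enzymes between control and model, and their part in the result was not tested. The 19 enzymes summed to 5286, 4821 and 4042 FPKM in control, 6206, 8723 and 6377 FPKM in model and 5441, 4752 and 6068 FPKM in BXD replicates 1 to 3. All model sums exceeded all control and BXD sums. Model replicate 2, the highest, also had the highest fat cell sum, 21527 CPM against 12651 and 14029 in model replicates 1 and 3. In control the fat cell sums were 4833, 5265 and 4768 CPM, highest in replicate 2, while the enzyme sum was highest in replicate 1. In BXD they were 8821, 9562 and 12843 CPM, and both sums were highest in replicate 3. All fat cell sums of BXD exceeded those of control, while the enzyme sums of the 2 groups overlapped. Brown fat markers, Ucp1 and Cidea among them, summed to 553 to 1338 CPM in control, 2794 to 7551 in model and 1012 to 1662 in BXD, and 6 of 6 tested rose in model against control. Hk2 and Slc2a4 are forms that fat and striated muscle use. Red blood cell genes summed to 2277 to 4637 CPM in control, 4107 to 6565 in model and 2055 to 2865 in BXD. Macrophage markers summed to 460 to 583, 657 to 709 and 479 to 570 CPM in the same order, and 3 of 7 rose in model against control. Within the model group, replicate 2 was the highest of the 3 libraries for 15 of the 19 enzymes (78.9%) and 23 of the 36 members (63.9%), against 39.2% of all genes tested. Within the control group, replicate 1 was the highest for 15 of the 19 enzymes and 25 of the 36 members (69.4%), against 34.9% of all genes.

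**Figure D3:**
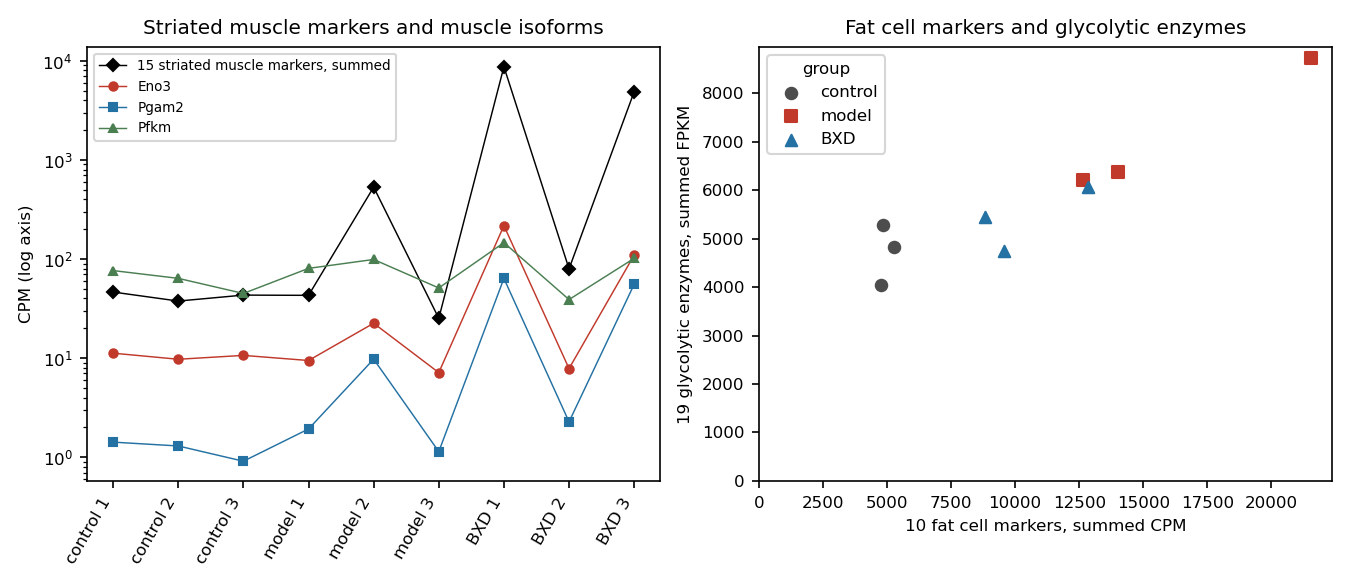
Left, CPM on a log axis for each library (x axis): the summed 15 striated muscle markers, Eno3, Pgam2 and Pfkm, all highest in BXD replicates 1 and 3. Right, each point is a library, with the summed CPM of 10 fat cell markers on the x axis and the summed FPKM of the 19 enzymes on the y axis; model replicate 2 stands at 21527 CPM and 8723 FPKM.

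Shares of the isoforms within a step were taken from FPKM, where gene length is divided out. They do not depend on library scaling. Hk2 made up 36.3, 20.7 and 26.0% of hexokinase FPKM (Hk1 plus Hk2) in control, 49.1, 73.2 and 52.8% in model and 38.0, 30.0 and 34.9% in BXD replicates 1 to 3. The means were 27.6% ± 7.94, 58.4% ± 13.0 and 34.3% ± 4.04 (SD, n = 3), so the leading hexokinase was Hk1 in control and BXD and Hk2 in model on average, with model replicate 1 near parity. Model did not overlap control or BXD. An exact two-sided permutation test of 3 against 3 cannot give a p under 0.1, and both comparisons were at that value, 0.25 and 0.222 after adjustment over 20 shares, of which those of a step with 2 isoforms mirror each other. Phosphofructokinase is assembled from 3 kinds of subunit. Pfkp made up 31.8% ± 10.6 of that FPKM in control, 17.5% ± 4.85 in model and 32.0% ± 6.46 in BXD, and Pfkl 46.0% ± 7.71, 59.6% ± 4.24 and 38.3% ± 8.02 (SD, n = 3), with an exact p of 0.2 for Pfkp and 0.2 for Pfkl in model against control. Of the summed FPKM of Egln1 and Egln3, without the other hydroxylase Egln2, Egln3 made up 35.2, 55.3 and 45.5% in control, 25.6, 14.3 and 18.9% in model and 29.6, 36.2 and 33.9% in BXD, without overlap of model with either group (exact p of 0.1 in each). In lactate dehydrogenase the groups overlapped, with Ldhb at 36.6% ± 1.01, 39.4% ± 3.35 and 38.3% ± 3.43 (SD, n = 3; exact p of 0.3 in model against control). Eno1 held 96.0% ± 0.278 of enolase in control and 97.8% ± 0.341 in model, and 66.8, 97.0 and 83.1% in BXD, where replicates 1 and 3 carried Eno3. Across the 20 shares, 8 were at the smallest p in model against control and 9 in BXD against model.

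**Figure D4:**
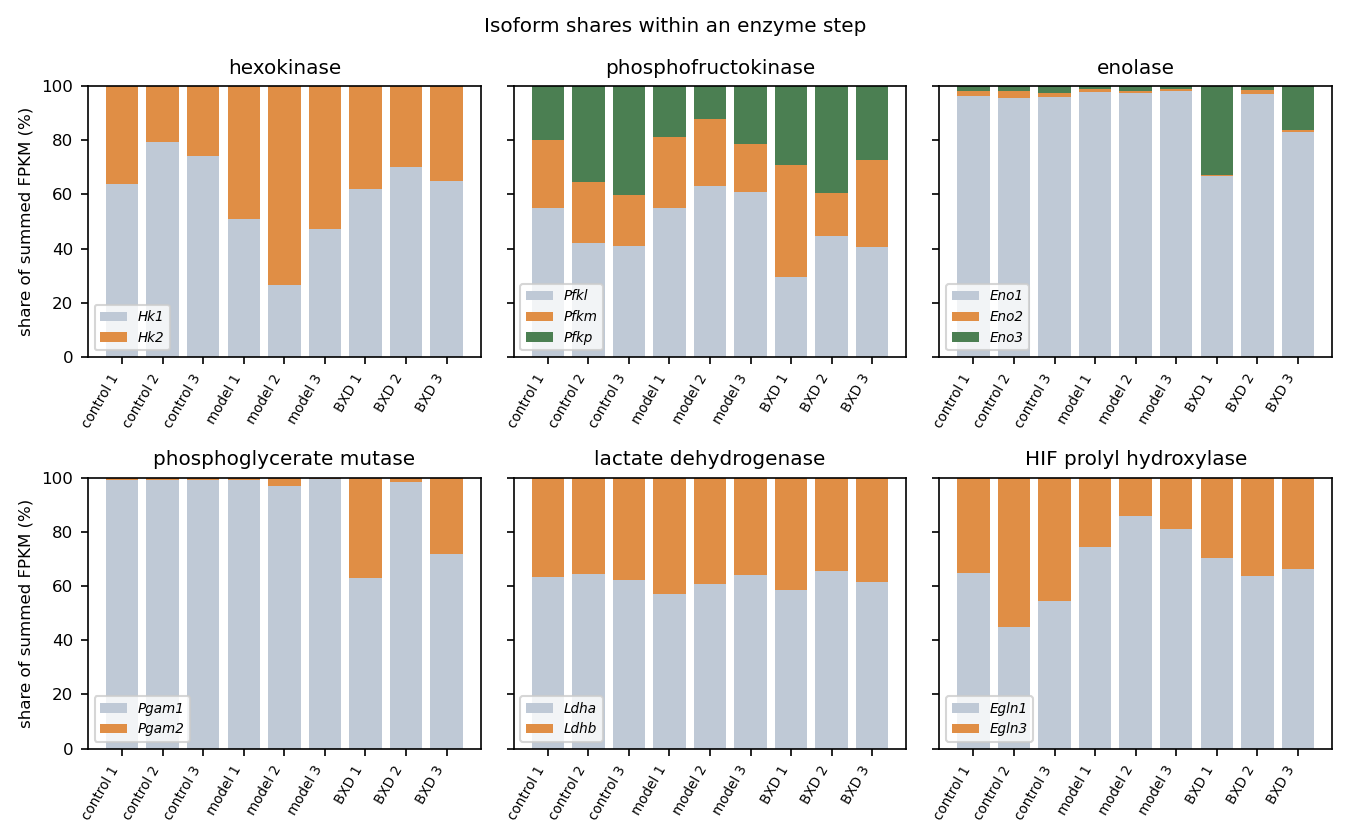
Each bar is a library and sums to 100% of the FPKM of the isoforms of 1 step, in 6 panels. Hk2 takes the larger part of hexokinase in model replicates 2 and 3 and 49.1% in model replicate 1, Egln3 has its smallest shares in model, and Eno3 and Pgam2 appear in BXD replicates 1 and 3.

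The other genes of both pathways, in 2 lists that exclude the 36 and were also chosen with earlier results known, were called as follows. Of 43 other genes of glucose metabolism that were tested, 18 rose and 4 fell in model against control (41.9% and 9.30%, beside 21.6% and 20.6% of all genes), with a median log2 fold change of 0.53. Those that rose included the pyruvate dehydrogenase subunits Pdha1, Pdhb, Pdhx and Dlat, the mitochondrial pyruvate carriers Mpc1 and Mpc2, the kinases Pdk2 and Pdk4 that switch pyruvate dehydrogenase off and the phosphatases Pdp1 and Pdp2 that switch it on. Of 43 other hypoxia genes tested, 13 rose and 8 fell (30.2% and 18.6%), nearer the shares of all genes, with a median of 0.25. Those that rose included Egln2, Hif3a, Arnt and Vhl, and those that fell Arnt2, Plod1, Edn1, Angpt2 and Vldlr. With library size alone the calls in both lists together were 16 higher and 16 lower in place of 31 and 12, and without control replicate 2 or 3 they numbered 27 and 28 in place of 43. In BXD against model edgeR called 0 in either list, where 7 glucose genes were higher and 20 lower at an unadjusted p under 0.05, and 6 hypoxia genes higher and 4 lower, beside 11% higher and 9.85% lower of all genes. In both lists together limma-voom called 0 and DESeq2 17, and edgeR itself called 2 without BXD replicate 1 and 1 without BXD replicate 2. The DESeq2 count has no share of all genes beside it. In BXD against control, 6 rose and 3 fell in the glucose list, and 12 rose and 3 fell in the hypoxia list. These are 20.9% and 34.9% of the lists, beside 30.3% of all genes called in that comparison. By direction, 13.95% of the glucose list were called higher and 6.98% lower, and of the hypoxia list 27.9% and 6.98%. Of all genes, 16.1% were called higher and 14.3% lower. The glucose list thus lay below both shares. The hypoxia list lay above the share called higher and below the share called lower. The 24 calls of both lists became 15 without control replicate 1 and 15 without BXD replicate 2. They became 11 without control replicate 2 and 11 without control replicate 3. No share of all genes called is given for the fits with a library left out.

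The genes of each list with the smallest p in model against control were clear of overlap. Slc16a1, the lactate and pyruvate carrier MCT1, stood at 110.5, 95.6 and 68.3 CPM in control and 301, 509 and 284 CPM in model, with a log2 change of 2.00 (SE 0.25, adjusted p = 0.000723). Gpd1, which links glycolysis to glycerol for fat synthesis, stood at 2052, 1458 and 1068 CPM in control and 4482, 8824 and 4513 CPM in model, with a log2 change of 1.96 (SE 0.32, adjusted p = 0.00201). Txnip, an inhibitor of glucose uptake, stood at 1991, 1876 and 2014 CPM in control and 3890.0, 3314 and 3116 CPM in model, with a log2 change of 0.81 (SE 0.12, adjusted p = 0.00162). Pck2, the mitochondrial form of the gluconeogenic enzyme PEPCK, went down, from 39.0, 35.2 and 36.7 CPM to 24.4, 22.6 and 21.2 CPM, with a log2 change of -0.70 (SE 0.10, adjusted p = 0.00143). Vhl, which carries hydroxylated HIF to its destruction, stood at 48.1, 44.0 and 45.4 CPM in control and 97.1, 120.3 and 91.0 CPM in model, with a log2 change of 1.17 (SE 0.12, adjusted p = 0.0004). Stc2, a secreted glycoprotein, was below 1 CPM in control, at 0.497, 0.584 and 0.210 CPM, and at 1.93, 1.88 and 1.44 CPM in model, with a log2 change of 1.99 (SE 0.40, adjusted p = 0.00504). The vasoconstrictor peptide gene Edn1 fell, from 19.8, 17.5 and 22.6 CPM to 6.83, 6.54 and 6.23 CPM, with a log2 change of -1.61 (SE 0.24, adjusted p = 0.00133), and the histone demethylase gene Kdm4b from 61.3, 59.7 and 65.4 CPM to 41.5, 37.6 and 40.6 CPM, with a log2 change of -0.64 (SE 0.09, adjusted p = 0.00118). In BXD against model the smallest p of the glucose list belonged to Bpgm, which makes 2,3-bisphosphoglycerate, at a log2 change of -0.68 (SE 0.16, adjusted p = 0.0997), and Tigar, a fructose bisphosphatase, at a log2 change of 0.72 (SE 0.17, adjusted p = 0.104). In the hypoxia list they belonged to Angpt2, a ligand in vessel remodelling, at a log2 change of 0.91 (SE 0.14, adjusted p = 0.0717), and Edn1, at a log2 change of 0.95 (SE 0.24, adjusted p = 0.11). Angpt2 stood at 32.5, 25.8 and 28.8 CPM in model and 58.3, 55.0 and 50.7 CPM in BXD, and Edn1 at 16.9, 12.6 and 8.53 CPM in BXD, without overlap in either.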

How the data were processed

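Per the labels' protocols, poly(A) RNA of 9 libraries was sequenced. HISAT2 2.2.4, Bowtie2 2.2.5 and build Rnor_6.0 are listed in the submitters' processing notes. Details of how counts were estimated, strand use among them, are not given in the sources used here. For the gavage of model rats the characteristics say saline and the protocol distilled water. Rats given omeprazole were not analysed here.

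Per the file headers, the authors deposited estimated counts, FPKM and TPM for 18964 genes. Of the estimated counts, 88.8% were whole within a tolerance of 1e-09. Isoform shares and 2 alternative fits used the deposited FPKM. The deposited TPM served only for an alternative to the isoform shares, and no value given here rests on it. The authors' deposited table of comparisons holds log2 fold changes, p-values and q-values, per its headers. A further 45 columns of per-sample values were not used. Coordinates are those of the deposited table.

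Estimated counts were rounded and filtered with filterByExpr, leaving 14643 genes. TMM scaling factors ran from 0.873 to 1.15. With edgeR 4.0.16 in R 4.3.3, a robust quasi-likelihood model of all 9 libraries took the group as its term and had 6 residual degrees of freedom and a biological coefficient of variation of 23.3%. Adjusted p-values are by Benjamini-Hochberg over all genes tested, and genes under 0.05 are called. Between replicates, chi-square over its degrees of freedom was 14.0 to 52.5, above sampling noise. Alternatives were other scalings, no filter, DESeq2 1.42.0, limma-voom and limma 3.58.1 on log2(FPKM + 0.1) or log2(FPKM + 1), the 2 compared groups alone, the replicate number as a term and each library left out.

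The members, the lists of other pathway genes and the marker lists were chosen with earlier results of these data known. Fold changes are given with SE and adjusted p for every member in model against control, for the 6 members with the smallest p in BXD against model and the 8 in BXD against control. Of each list of other genes, the 4 called genes with the smallest p in model against control and the 2 with the smallest p in BXD against model are given in the same way.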

Additional observations from a re-analysis of the deposited data

How the results depend on the processing

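In model against control, the count of called members ranged from 18 to 27 with a library left out, and that of the other pathway genes from 27 to 46 (43 with all libraries). In BXD against control the ranges were 8 to 17 for members (13) and 11 to 25 for other pathway genes (24). In BXD against model they were 0 to 1 and 0 to 2, with 0 for both when all were kept. Counts of all genes called in these fits are not given beside the ranges, so they do not show whether other genes changed alike. DESeq2 called 9 members and 17 other pathway genes in BXD against model, with no share of all genes given beside these counts. Leaving out model replicate 2 and BXD replicates 1 and 3 together, an alternative chosen after seeing the data, gave 1 other pathway gene in BXD against model and 15 in BXD against control. The cause was not tested. Limma on log2(FPKM + 0.1) called 14 members higher and 6 lower in model against control, and 7 and 4 in BXD against control. Of the members' fold changes in model against control under the 20 alternatives, 612 kept their direction and side of the threshold, 71 lost the call, 13 gained one and 24 changed sign. Those 24 belonged to 4 genes that were not called. Hk1 was at -0.060 (upper quartile), -0.20 (library size), -0.22 and -0.21 on log2(FPKM + 0.1) and log2(FPKM + 1), and -0.10 to 0.19 with a library left out. Adm was at -0.035, -0.18, -0.17 and -0.17 in the same order, and -0.075 to 0.22. Ddit4 was at -0.12, -0.26, -0.20 and -0.20, -0.0069 with only the compared groups, -0.080 without the 3 libraries, and -0.25 to 0.15. Eno3 was at -0.13 and -0.11 on the FPKM scales, -0.35 without the 3 libraries, and -0.35 to 0.60.

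The labels do not say that a replicate number marks shared animals or batches. Deviations from the group means of same-numbered libraries correlated between -0.431 and 0.0859, and in each comparison 0 of 3 libraries correlated best with their own number. With the replicate block, edgeR called 21 members (18 higher, 3 lower) and 41 other pathway genes in model against control. It called 0 of either kind in BXD against model, and 11 members and 18 other pathway genes in BXD against control.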
